A study of Mus musculus with 20 samples.

Results

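The genes Nsf, Synj1, Cltb and Rph3a encode proteins of the synaptic vesicle cycle, and their log ratios were followed over 20 mouse brain arrays. The 4 genes were represented by every probe that carried one of their symbols, which gave 5 of the 15245 probes, 2 of them for Nsf. All 5 passed the filter on missing values, as did 9701 probes in all, and the 4 genes stood among 5255 genes tested. The genes were chosen by their ratios of null mutant over wild type on these same arrays, so those ratios are given as a description without a test.

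Each array compared amplified total RNA of 1 brain region of a null mutant mouse with a pool of wild-type RNA from that region. Cortex, hippocampus, cerebellum and brain stem-diencephalon had 5 arrays each, with the null RNA in channel 1 on 3 arrays and in channel 2 on 2 arrays, the dye swaps. No source used here gives the strain, age or sex of the mice or the size of the wild-type pool, or says whether array numbers stand for separate animals. All values below are null over wild type, with swapped arrays multiplied by -1 and each array centred on its median. They were read as log2 ratios, although the base of the log is not stated. Which channel stands on top of the ratio is not stated either, so every direction is likely only, and all signs would turn together if the order were the opposite.

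Chemical synapses release transmitter from vesicles that are primed at the active zone, fuse through SNARE proteins and are taken up again by clathrin-mediated endocytosis. Rph3a encodes rabphilin, which binds the vesicle GTPase Rab3 and has lipid-binding C2 domains. Nsf encodes the ATPase that takes spent SNARE complexes apart so that they can be used again. Cltb encodes clathrin light chain B, a part of the endocytic coat, and Synj1 encodes synaptojanin 1, a phosphoinositide phosphatase needed to shed that coat.

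The windows around the annotated starts of the 4 genes are shown so that the sequence of the 2 genes with ratios above 0 can be read beside that of the 2 with ratios below 0. Each window holds 250 bases before and 50 bases after a start, from RefSeq on GRCm38.p6, and is written 5′ to 3′ on the gene's strand. Synj1 has 2 such windows and Rph3a has 3, and the window with the most matches is printed. Capitals mark matches on either strand. The motifs were the GC box, spelled GGGCGG, and the NF-Y motif, spelled CCAAT. Further motifs were the E-box, spelled CACGTG, and the cAMP response element, spelled TGACGTCA.
Rph3a, chr5:121009489-121009788, minus strand: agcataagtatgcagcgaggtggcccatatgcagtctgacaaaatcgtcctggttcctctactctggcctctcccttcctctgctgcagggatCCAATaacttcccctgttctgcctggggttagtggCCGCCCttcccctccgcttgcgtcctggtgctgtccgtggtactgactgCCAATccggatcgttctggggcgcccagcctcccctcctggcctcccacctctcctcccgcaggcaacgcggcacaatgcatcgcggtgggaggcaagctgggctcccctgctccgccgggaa
Nsf, chr11:103954007-103954306, minus strand: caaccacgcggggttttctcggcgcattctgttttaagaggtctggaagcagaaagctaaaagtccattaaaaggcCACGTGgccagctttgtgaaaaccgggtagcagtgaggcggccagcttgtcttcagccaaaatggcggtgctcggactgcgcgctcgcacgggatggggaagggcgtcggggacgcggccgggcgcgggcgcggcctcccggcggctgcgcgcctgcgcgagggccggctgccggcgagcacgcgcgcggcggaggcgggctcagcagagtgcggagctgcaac
Cltb, chr13:54611324-54611623, minus strand: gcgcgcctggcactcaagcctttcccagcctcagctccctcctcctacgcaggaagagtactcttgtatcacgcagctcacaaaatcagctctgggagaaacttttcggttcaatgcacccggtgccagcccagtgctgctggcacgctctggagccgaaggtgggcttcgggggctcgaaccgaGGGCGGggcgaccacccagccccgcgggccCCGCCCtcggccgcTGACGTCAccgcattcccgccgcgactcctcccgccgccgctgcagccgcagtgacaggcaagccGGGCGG
Synj1, chr16:91011046-91011345, minus strand: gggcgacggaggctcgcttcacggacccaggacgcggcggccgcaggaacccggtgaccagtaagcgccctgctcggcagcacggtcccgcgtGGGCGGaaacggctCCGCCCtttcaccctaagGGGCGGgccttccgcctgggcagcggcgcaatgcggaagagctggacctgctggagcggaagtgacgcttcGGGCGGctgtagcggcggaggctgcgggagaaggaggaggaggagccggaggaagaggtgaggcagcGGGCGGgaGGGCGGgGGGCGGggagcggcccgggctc
The printed Synj1 window held 7 GC boxes and 36 CpG dinucleotides, and its other window held 30 CpG and none of the motifs. The Nsf window held 1 E-box and 38 CpG, and the Cltb window held 3 GC boxes, 1 cAMP response element and 29 CpG. Rph3a stood apart with 16 CpG in the printed window, which held 1 GC box and 2 NF-Y motifs, and 7 and 5 CpG in its other 2. Over 32851 windows of the same kind the median was 7 CpG, and a GC box lay in 35.7%, an NF-Y motif in 37.4%, an E-box in 7.15% and a cAMP response element in 1.79%. A TATA box, spelled TATAAA and found in 13.6% of windows, and an NRF1 site (in 0.971%) were searched too and matched none of the windows of the 4 genes. Synj1 and Nsf, which both had ratios above 0, shared no motif among those searched, while Cltb, Rph3a and Synj1 shared the GC box.

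Some arrays stood apart before any gene was considered. The swapped arrays labelled cerebellum 1 and brain stem-diencephalon 2 held nearly the same values, with a correlation of 0.9952 over 6748 probes against 0.743 for the next of the 190 pairs, and are called the repeated array. Its region is not known, so cerebellum and brain stem-diencephalon ratios of the 4 genes are given with and without it. The Y-linked gene Eif2s3y lay between -1.36 and -0.44 on the 6 arrays of number 1 and between 0.93 and 1.64 on 11 arrays of other numbers, leaving out the repeated array (1.71). The arrays of number 1 are therefore shown separately below. One swapped cortex array carries no number and stood as a separate replicate, although it may hold the same extract as a numbered one. An array had values for 6793 to 13963 probes, and precision is limited by how few arrays there are.

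**Figure D1:**
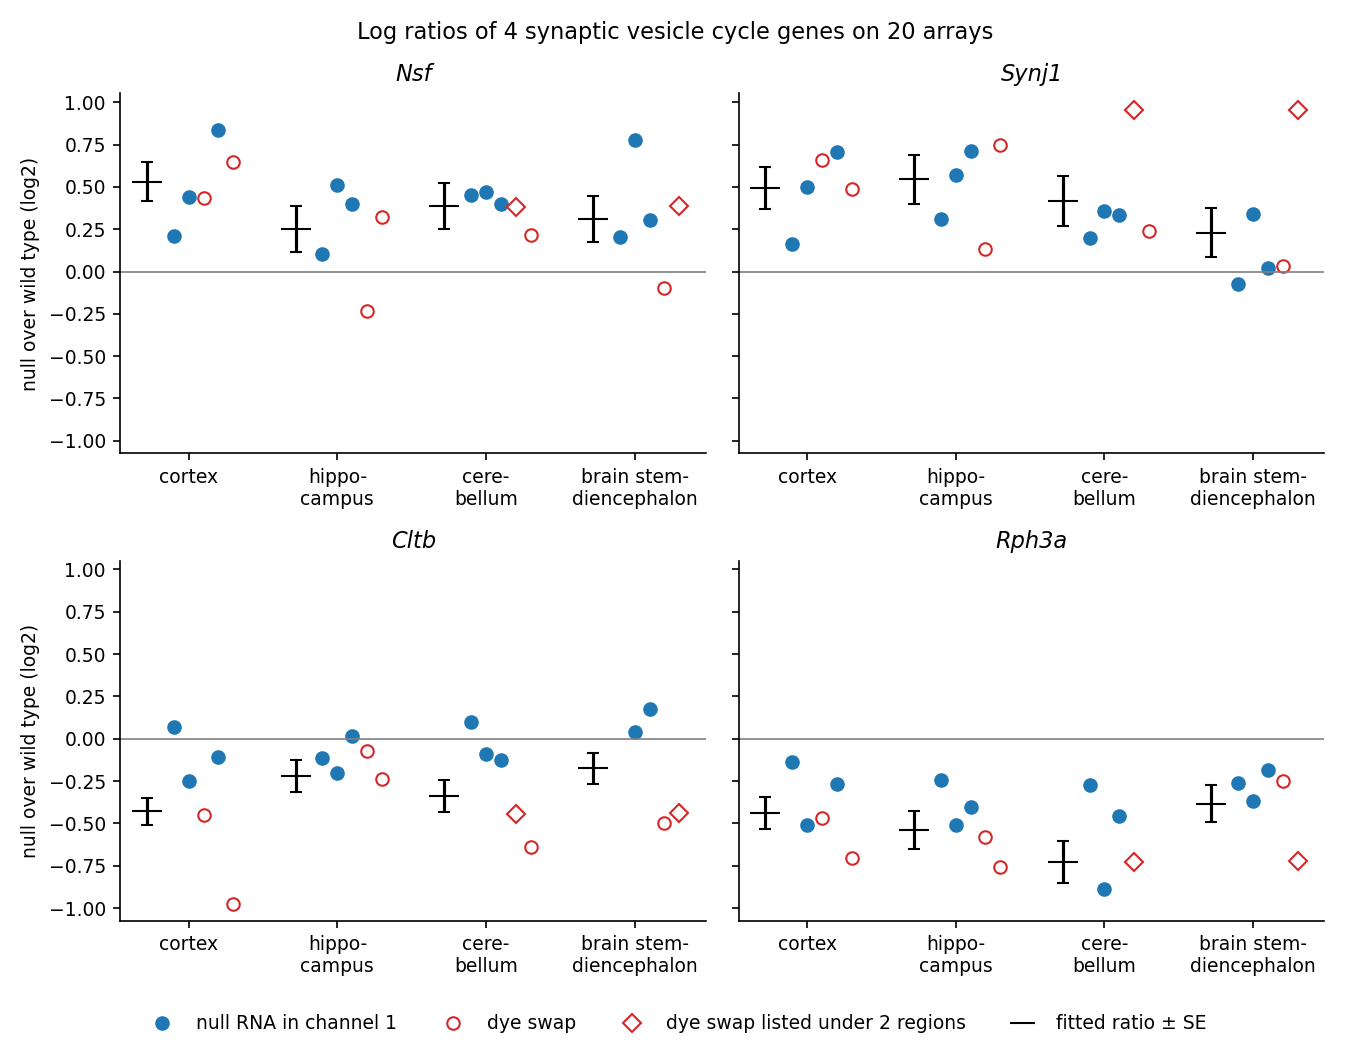
Null over wild type (log2, vertical axis) of Nsf, Synj1, Cltb and Rph3a on each array, by region, with filled circles for null RNA in channel 1, open circles for dye swaps and diamonds for the array listed under 2 regions. Crosses with bars are the fitted ratio and its SE. Rph3a lay below 0 on 19 of 19 arrays, and Synj1 lay above 0 on 19 of 20.

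Rph3a had the widest distance from 0 among the 4 genes in the mean of the regions. In cortex its values were -0.14, -0.51 and -0.27 on channel 1 arrays 1 to 3, -0.47 on swapped array 2 and -0.70 on the swapped array without a number. In hippocampus they were -0.24, -0.51 and -0.40 on channel 1 arrays 1 to 3 and -0.58 and -0.76 on swapped arrays 1 and 2. All 10 forebrain values lay below 0, and those nearest to 0 came from the channel 1 arrays of number 1. In cerebellum Rph3a had -0.27, -0.89 and -0.46 on channel 1 arrays 1 to 3 and -0.73 on swapped array 1, with no value on swapped array 2. In brain stem-diencephalon it had -0.26, -0.37 and -0.18 on channel 1 arrays and -0.25 and -0.72 on swapped arrays 1 and 2. Rph3a was thus below 0 on 19 of 19 arrays with a value. Among 4150 features with 19 or 20 values, 0.675% lay below 0 on every array and 2.02% kept one sign in either direction.

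The fitted ratio of Rph3a was -0.73 ± 0.12 in cerebellum, -0.54 ± 0.11 in hippocampus, -0.44 ± 0.10 in cortex and -0.38 ± 0.11 in brain stem-diencephalon (SE, n = 3 replicates, 4 in cortex). This corresponds to 1.66-fold, 1.45-fold, 1.36-fold and 1.30-fold lower levels in null RNA. The replicate ranges of neighbours in this order overlapped, with -0.89 to -0.46 in cerebellum and -0.63 to -0.40 in hippocampus. Cortex replicates spanned -0.70 to -0.14, and those of brain stem-diencephalon -0.54 to -0.18. In the mean of the 4 regions the ratio was -0.52 ± 0.06 (13 replicates), and 0.841% of the 8319 features had a lower one. Without the repeated array the ratio was -0.73 in cerebellum, -0.39 in brain stem-diencephalon and -0.53 in the mean. In bulk tissue, fewer cells of a type and less RNA per cell cannot be told apart, for Rph3a as for the other 3 genes.

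Nsf had 2 probes, 11590 and 11741, that gave the same sign on 20 of 20 arrays. Across these arrays, which both probes share, they correlated at 0.827. Their largest gap was 0.52, on channel 1 array 3 of cortex, where they read 1.10 and 0.58. The mean of both probes was 0.21, 0.44 and 0.84 on the channel 1 arrays of cortex, 0.44 on swapped array 2 and 0.65 on the swapped array without a number. In hippocampus Nsf had 0.10, 0.51 and 0.40 on channel 1 arrays 1 to 3, but -0.23 and 0.32 on swapped arrays 1 and 2. The lowest values of these regions came again from arrays of number 1. In cerebellum the values were 0.45, 0.47 and 0.40 on channel 1 arrays and 0.38 and 0.21 on swapped arrays. In brain stem-diencephalon they were 0.20, 0.77 and 0.31 on channel 1 arrays and -0.10 and 0.39 on swapped arrays 1 and 2. Nsf was above 0 on 18 of 20 arrays, and both exceptions were swapped arrays of number 1. For comparison, 10.2% of the features with 19 or 20 values kept one sign on all but at most 2 arrays.

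The fitted ratio of Nsf was 0.53 ± 0.12 in cortex, or 1.44-fold, 0.38 ± 0.14 in cerebellum, 0.31 ± 0.14 in brain stem-diencephalon and 0.25 ± 0.14 in hippocampus (SE). Cerebellum had the narrowest spread, with replicates from 0.34 to 0.42 (SD 0.038, n = 3). Hippocampus replicates ran from -0.065 to 0.42, those of brain stem-diencephalon from 0.052 to 0.58 and those of cortex from 0.21 to 0.84, so that neighbours in the order overlapped. The mean over the regions was 0.37 ± 0.07, or 1.29-fold, with 12 of 13 replicates above 0. Without brain stem-diencephalon replicate 2 the ratio there was 0.16, and in hippocampus it was 0.42 without replicate 1 and 0.16 without replicate 2. Without the repeated array Nsf had 0.34 in cerebellum, 0.32 in brain stem-diencephalon and 0.35 in the mean.

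Cltb was below 0 on 14 of 19 arrays, and on average it read lower on swapped arrays than on channel 1 arrays. This difference is described without a test. On the channel 1 arrays 1 to 3 it had 0.071, -0.25 and -0.11 in cortex, -0.11, -0.20 and 0.014 in hippocampus and 0.10, -0.088 and -0.12 in cerebellum. In brain stem-diencephalon channel 1 arrays 2 and 3 gave 0.038 and 0.17, and array 1 had no value. The channel 1 values thus lay on both sides of 0 in every region but brain stem-diencephalon, where both were above it. The swapped arrays gave -0.45 for number 2 and -0.98 for the unnumbered array in cortex, and -0.071 and -0.24 in hippocampus. They gave -0.44 and -0.64 in cerebellum and -0.50 and -0.44 in brain stem-diencephalon. All 8 swapped arrays therefore had Cltb below 0, while 5 of the 11 channel 1 arrays had it above 0.

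With the orientation of the arrays in the model, the fitted ratio of Cltb was -0.43 ± 0.08 in cortex, -0.34 ± 0.10 in cerebellum, -0.22 ± 0.10 in hippocampus and -0.17 ± 0.09 in brain stem-diencephalon (SE). The mean of the regions was -0.29 ± 0.05, or 1.22-fold lower. These ratios are set midway between the 2 orientations, and without the swapped arrays they were 0.11 in brain stem-diencephalon, -0.037 in cerebellum, -0.095 in cortex, -0.10 in hippocampus and -0.032 in the mean. On the swapped arrays alone the mean was -0.47. Without an orientation term the ratio was -0.34 in cortex, -0.22 in cerebellum, -0.10 in hippocampus, -0.17 in brain stem-diencephalon and -0.21 in the mean. Without the repeated array it was -0.37 in cerebellum, -0.22 in brain stem-diencephalon and -0.31 in the mean. The cortex replicates spread widely, from -0.98 to 0.071 (SD 0.46, n = 4), and the unnumbered swapped array was the lowest. Cerebellum replicates spanned -0.36 to -0.12, those of hippocampus -0.22 to 0.014 and those of brain stem-diencephalon -0.50 to 0.17, and neighbours in the order overlapped.

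Synj1 was above 0 on 19 of 20 arrays. In cortex it had 0.16, 0.50 and 0.71 on channel 1 arrays 1 to 3, 0.66 on swapped array 2 and 0.49 on the swapped array without a number. In hippocampus it had 0.31, 0.57 and 0.71 on channel 1 arrays and 0.13 and 0.74 on swapped arrays 1 and 2. The lowest value of each of these regions came from an array of number 1. In cerebellum Synj1 had 0.20, 0.36 and 0.34 on channel 1 arrays and 0.95 and 0.24 on swapped arrays 1 and 2. In brain stem-diencephalon it had -0.071, 0.34 and 0.020 on channel 1 arrays and 0.035 and 0.95 on swapped arrays 1 and 2. The 2 highest values of Synj1 in the series were both readings of the repeated array.

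The fitted ratio of Synj1 was 0.54 ± 0.15 in hippocampus, or 1.46-fold, 0.49 ± 0.13 in cortex, 0.42 ± 0.15 in cerebellum and 0.23 ± 0.15 in brain stem-diencephalon (SE). Without the repeated array the ratio was 0.25 in cerebellum and 0.087 in brain stem-diencephalon, so that the values of Synj1 in these regions rest to a large part on that array. The brain stem-diencephalon ratio was -0.0029 without replicate 2, whose swapped array is the repeated one, and 0.37 without replicate 1. Replicates spanned 0.22 to 0.71 in hippocampus, 0.16 to 0.71 in cortex, 0.30 to 0.58 in cerebellum and -0.018 to 0.65 in brain stem-diencephalon, and neighbours in the order overlapped. The mean of the regions was 0.42 ± 0.08, or 1.34-fold, and 0.33 without the repeated array.

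The calls that led to the choice of the genes were adjusted p under 0.05 over all features, and nothing is read from their number. All 4 genes were called in cortex, where 4.12% of features were called. Rph3a alone was called in hippocampus (0.661% of features) and cerebellum (3.07%), and none of the 4 in brain stem-diencephalon (0.361%). In the mean all 4 were called, as were 26.1% of features. The cortex calls of all 4 genes ended without replicate 2, replicate 3 or the unnumbered array. They also ended with arrays scaled to one spread, with a variance trend and robust moderation, without the swapped arrays and on the swapped arrays alone. Those of Cltb and Rph3a ended without an orientation term, and that of Synj1 where 2 arrays per region were enough. Without the unnumbered array the cortex ratios were 0.44 for Nsf, 0.53 for Synj1, -0.31 for Cltb and -0.37 for Rph3a. Without replicate 3 they were 0.43, 0.41, -0.42 and -0.44 in the same order, and without replicate 2 they were 0.56, 0.46, -0.46 and -0.42. The Synj1 call in cortex also ended without brain stem-diencephalon replicate 3, hippocampus replicate 2 or any of the 3 cerebellum replicates, and that of Nsf without cerebellum replicate 2, while their ratios stayed between 0.48 and 0.53. The Rph3a call in cerebellum ended without cerebellum replicate 2 (ratio -0.58), with the variance trend and on the swapped arrays alone. In hippocampus it ended without any of the 3 hippocampus replicates (-0.61, -0.49 and -0.52). The same held in hippocampus with scaled arrays, with the variance trend, without an orientation term and where 2 arrays per region were enough. It held too without the swapped arrays and on the swapped arrays alone. There it also ended without cortex replicate 2, cortex replicate 3 or the unnumbered array, cerebellum replicate 3, and brain stem-diencephalon replicate 2 or 3 (-0.54 to -0.52). The Cltb call in the mean ended without the swapped arrays and without an orientation term, and that of Nsf on the swapped arrays alone (0.26). Calls were also gained, in cerebellum by Cltb (-0.43) and in hippocampus by Synj1 (0.69) without the replicates of number 1. In that fit, chosen after the data were seen, calls over all features rose too. They went from 255 to 557 in cerebellum and from 55 to 427 in hippocampus. Synj1 was called in hippocampus without the swapped arrays too, where 303 features were called. Nsf was called in cerebellum with single arrays in a random block (0.36), where 708 features were called. Cltb was also called in cerebellum (-0.36) where replicates of one number were allowed to correlate, as were 494 features.

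An orientation term was part of the model whose calls chose the genes, so it is given as a description, without a test. The term runs from the midpoint of both orientations to the channel 1 arrays, so it is positive where a gene read higher with null RNA in channel 1. Cltb was among the 0.926% of features called for it, and nothing is read from that. Its term was 0.36 ± 0.07 (SE). With the repeated array counted once, its mean was -0.044 ± 0.13 on channel 1 arrays (SD, n = 11) and -0.47 ± 0.29 on swapped arrays (SD, n = 7). Of all features 0.637% had a term as high as that of Cltb or higher. In the 6 numbered pairs with both values, Cltb read lower on the swapped array in 5, with a median difference of -0.34 (swapped minus channel 1). Without the 2 pairs that hold the repeated array, 3 of 4 were lower and the median was -0.12.

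Rph3a had a term of 0.17 ± 0.09, with means of -0.37 ± 0.20 on channel 1 arrays (SD, n = 12) and -0.58 ± 0.19 on swapped arrays (SD, n = 6). Nsf had a term of 0.0043 ± 0.10 and Synj1 one of -0.038 ± 0.11. With single arrays in a random block the terms were 0.20 for Cltb, 0.12 for Rph3a, 0.092 for Nsf and -0.096 for Synj1. That setting called 3613 of 8319 features for orientation, against 77 with averaged pairs, with Cltb and Rph3a among them. Averaged pairs stand at the midpoint of the orientations, so the term rests on how arrays without a partner differ from the pairs and from each other. Within pairs, Nsf read lower on the swapped array in 7 of 7, with a median difference of -0.26, and in 5 of 5 without the repeated array. Synj1 read lower on the swapped array in 2 of 7 pairs. The signs of Rph3a matched in 6 of 6 pairs, those of Synj1 in 6 of 7, those of Nsf in 5 of 7 and those of Cltb in 4 of 6. The term of Cltb was 0.28 without the unnumbered cortex array, the only swapped array of cortex that entered without a partner. Its call ended there, and also without cortex replicate 1, cerebellum replicates 2 or 3, or brain stem-diencephalon replicates 1, 2 or 3, with terms from 0.33 to 0.38, and without the replicates of number 1 (0.37).

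**Figure D2:**
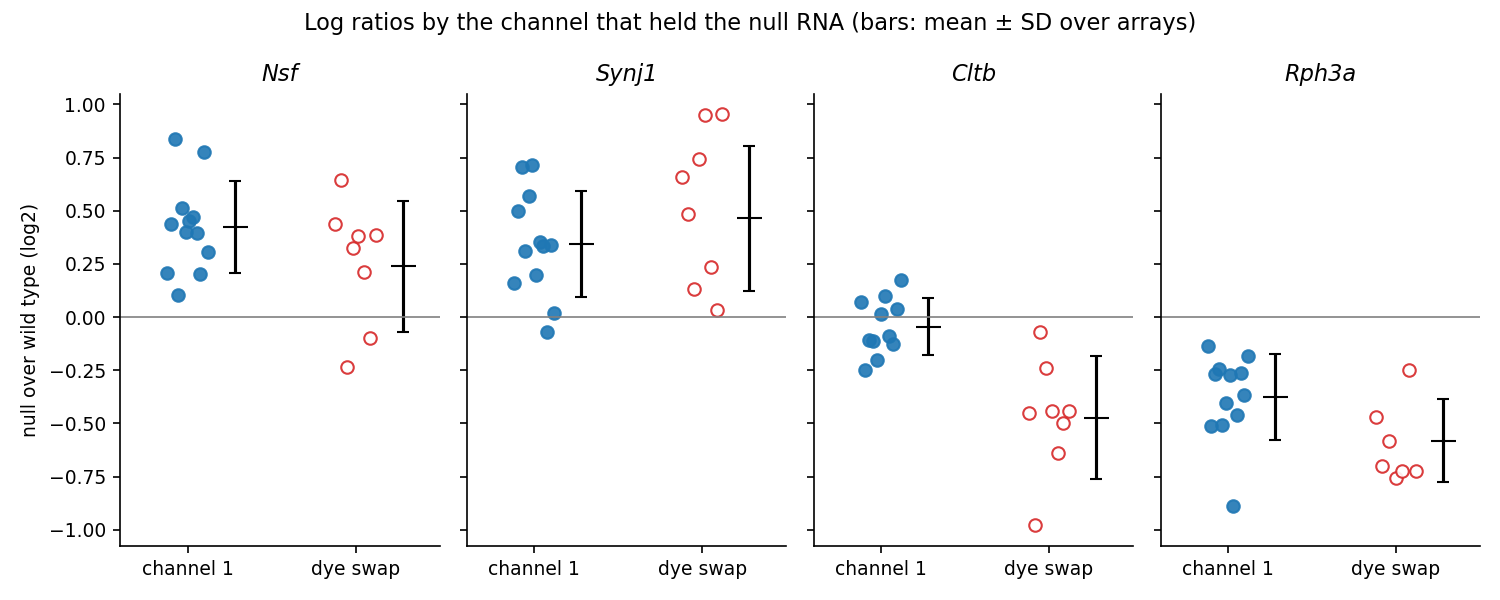
Null over wild type (log2, vertical axis) of each gene on channel 1 arrays and on dye swaps, with bars for the mean and SD over arrays, the array listed under 2 regions counted once. Cltb averaged -0.044 on channel 1 arrays and -0.47 on dye swaps, and the groups overlapped for all 4 genes.

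The array number was the other split that moved with the ratios. Leaving out the repeated array, Nsf averaged 0.11 ± 0.24 on arrays of number 1 (SD, n = 6) and 0.48 ± 0.19 on the others (SD, n = 12). Synj1 averaged 0.13 ± 0.13 on arrays of number 1 and 0.47 ± 0.22 on the others. Rph3a lay nearer to 0 on arrays of number 1, with -0.29 ± 0.15 (n = 6), against -0.50 ± 0.21 on the others (n = 11). Cltb had -0.10 ± 0.24 (n = 5) and -0.24 ± 0.32 (n = 12). All 4 genes thus had the smaller mean distance from 0 on arrays of number 1, and the ranges of both sets overlapped for each gene. The same arrays carry Eif2s3y below 0, and the part of this difference in the ratios of the 4 genes was not tested. The spread over all probes (median absolute deviation) was 0.24 to 0.31 on these 6 arrays and 0.25 to 0.37 on the others. Its part was not tested either.

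**Figure D3:**
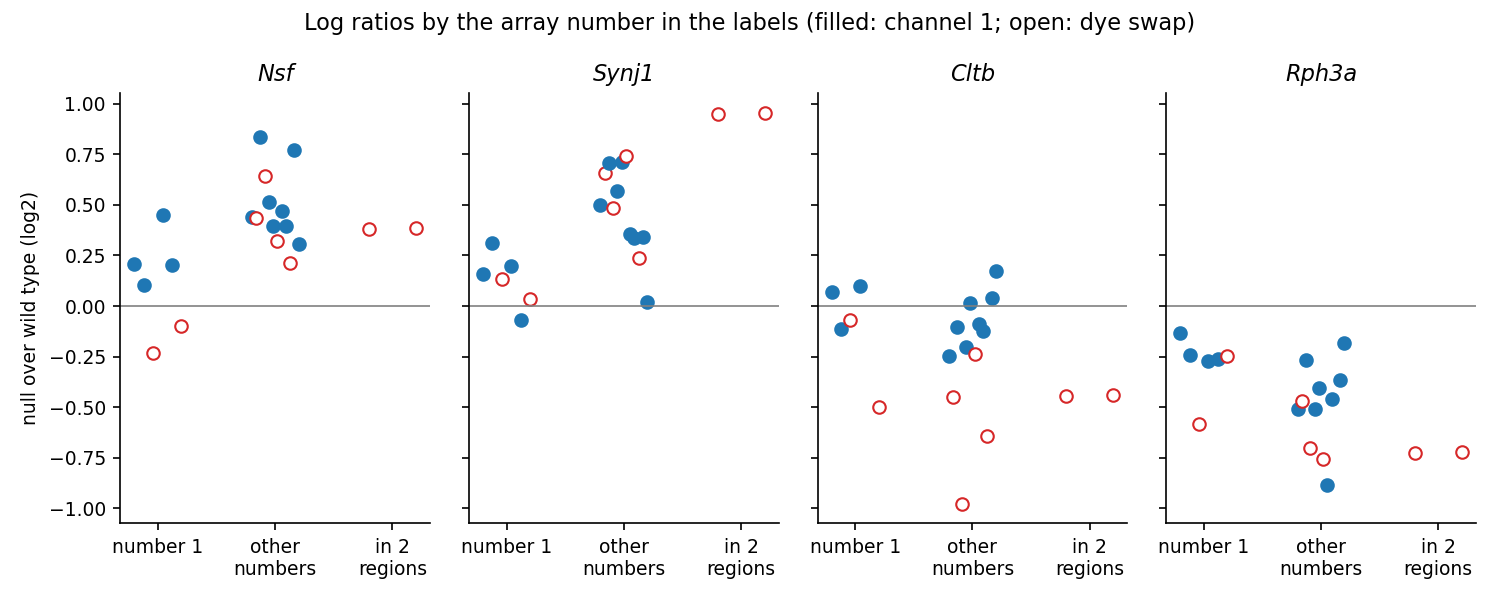
Null over wild type (log2, vertical axis) of each gene on arrays of number 1, on arrays of other numbers or without a number, and on the array listed under 2 regions, with filled circles for channel 1 and open circles for dye swaps. Nsf averaged 0.11 on arrays of number 1 and 0.48 on the others.

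The 4 genes were also set against each other and against all genes with a value in all 13 replicates. Over 17 to 19 arrays, with the repeated array counted once, Nsf and Synj1 correlated at 0.516, Cltb and Rph3a at 0.463 and Synj1 and Rph3a at -0.534. The remaining pairs were weaker, with -0.010 for Nsf and Cltb, -0.151 for Nsf and Rph3a and -0.254 for Synj1 and Cltb. The points of such a pair share arrays, dyes and the wild-type pool, so these are descriptions. Among 3617 genes the profiles most like Nsf over the 13 replicates were those of Epb41l2 (r = 0.964), Ahcyl2 (0.939) and Zwint (0.926). For Synj1 they were BB001228 (0.953), 9530068E07Rik (0.884) and Poglut3 (0.883), and for Rph3a they were Fsd1 (0.950), Nrbp2 (0.903) and Pbx2 (0.879). For Cltb they were Dym (0.935), Supt5 (0.930) and Abhd17a (0.929), which averaged 0.079, -0.021 and 0.097 over the regions, near 0 where Cltb had -0.29.

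Whether other genes of the vesicle cycle moved was asked with a list of 101 genes in 5 role groups, of which 42 were on the array and 33 were measured. In the mean of the 4 regions 14 of the 33 passed (42.4%, with 8 higher and 6 lower), against 26.1% of all features, and the list's own values lay on both sides of 0. In single regions limma called 0 of the 33. At an unadjusted p under 0.05 there were 11 in cortex (27.7% of all features) and 10 in cerebellum (22.5%). There were 4 in brain stem-diencephalon (13.5%) and 3 in hippocampus (14.1%). Without the repeated array 10 of the 14 genes remained called in the mean, and the list had 8 calls with arrays scaled to one spread and 8 without an orientation term. The calls of Rab3b, Cltc, Ap2m1, Eps15, Sh3gl1 and Pip5k1a ended with scaled arrays and without an orientation term, and that of Dnm2 without an orientation term. Each of these calls also ended where replicates of one number were allowed to correlate, which left 7 of the 14 called. Calls over all features fell as well, from 2172 to 1407 without the repeated array and to 1445 where replicates could correlate. Leaving out cortex replicate 2 gave 9, the unnumbered array 7 and hippocampus replicate 2 gave 7. Leaving out cerebellum replicate 2 gave 6, cerebellum replicate 3 gave 8 and brain stem-diencephalon replicate 2 gave 8. The cortex count became 8 without cortex replicate 1, 5 without hippocampus replicate 1, 1 without hippocampus replicate 3 and 1 without brain stem-diencephalon replicate 1. The cerebellum count became 2 without hippocampus replicate 1 and 1 without cortex replicate 3. Calls over all features changed as well when 1 replicate was left out, so nothing is read from these counts.

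Of the SNARE and priming group, to which Nsf belongs, 3 further genes were measured and none passed in the mean (0 with limma, and 0 at an unadjusted p under 0.05). Napa, the adaptor that recruits Nsf to SNARE complexes, had 0.0035 ± 0.074, and the SNARE genes Snap23 and Snap29 had -0.093 ± 0.048 and 0.027 ± 0.085. Nsf at 0.37 lay above all 3, but it was chosen by its ratio, so nothing is read from that. Of 4 vesicle membrane genes, Syt11, a synaptotagmin family member, rose by 0.43 ± 0.07 in 11 of 11 replicates (adjusted p = 0.00186). Syngr3, a synaptogyrin, fell by 0.30 ± 0.08 and was below 0 in 11 of 13. Syngr1 and the transporter-like vesicle protein gene Sv2a had -0.042 and -0.041.

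Of 7 genes of the Rab3 cycle and the active zone, which surround Rph3a, 2 were called higher and 1 lower in the mean, where 26.1% of all features were called. Gdi2, which extracts Rab proteins from membranes, rose by 0.35 ± 0.07 (adjusted p = 0.00304, above 0 in 12 of 13 replicates), and Rab3b, a Rab3 isoform, rose by 0.25 ± 0.09. Erc1, an active zone scaffold, fell by 0.19 ± 0.05 and was below 0 in 12 of 13 replicates. Erc2, its relative, had 0.18 ± 0.08 in the fit, although 8 of its 13 replicates lay below 0, with an orientation term of -0.42. Rab3ip had -0.17 ± 0.08 and Rabac1 0.082 ± 0.069. Rph3a lay lower than every one of these 7 genes, but it was chosen by its ratio, so nothing is read from that.

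Of 10 genes of the clathrin coat and its adaptors, 3 were called higher and 1 lower in the mean, against 26.1% of all features called. Necap1, an adaptor-binding coat protein, rose by 0.32 ± 0.06 in 12 of 13 replicates (adjusted p = 0.00304). Eps15, an endocytic scaffold, rose by 0.20 ± 0.07, and Cltc, the clathrin heavy chain, rose by 0.19 ± 0.07. Ap2m1, the medium subunit of the AP-2 adaptor, fell by 0.18 ± 0.06 in the fit, although 6 of its 13 replicates lay above 0. Clta, the other clathrin light chain, had -0.13 ± 0.06, with an orientation term of 0.27 (adjusted p = 0.134). Ap2a2 had 0.085 ± 0.049 and Aak1 0.065 ± 0.057. Without the repeated array the calls of Eps15 (0.21, adjusted p = 0.0687), Ap2m1 (-0.13, adjusted p = 0.153) and Sh3gl1 (-0.12, adjusted p = 0.185) ended. The call of Cltc ended there too (adjusted p = 0.0608), although its ratio of 0.19 did not change.

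Of 9 genes of fission, uncoating and phosphoinositides, the group of Synj1, 2 were called higher and 3 lower in the mean, against 26.1% of all features called. Dnajc5, the cysteine string protein of vesicles, rose by 0.31 ± 0.06 in 13 of 13 replicates (adjusted p = 0.00246). The 2 kinases that make the lipid that synaptojanin removes had opposite signs, since Pip5k1a rose by 0.28 ± 0.09 and Pip5k1c fell by 0.30 ± 0.06, with 12 of 13 replicates of Pip5k1c below 0. Dnm2, a dynamin that cuts vesicles from the membrane, fell by 0.20 ± 0.06, with 6 of 13 replicates above 0, and the endophilin Sh3gl1 fell by 0.13 ± 0.05. Hspa8, the chaperone that strips clathrin, had -0.11 ± 0.05, Synj2bp -0.11 ± 0.06 and Pi4ka 0.11 ± 0.06.

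**Figure D4:**
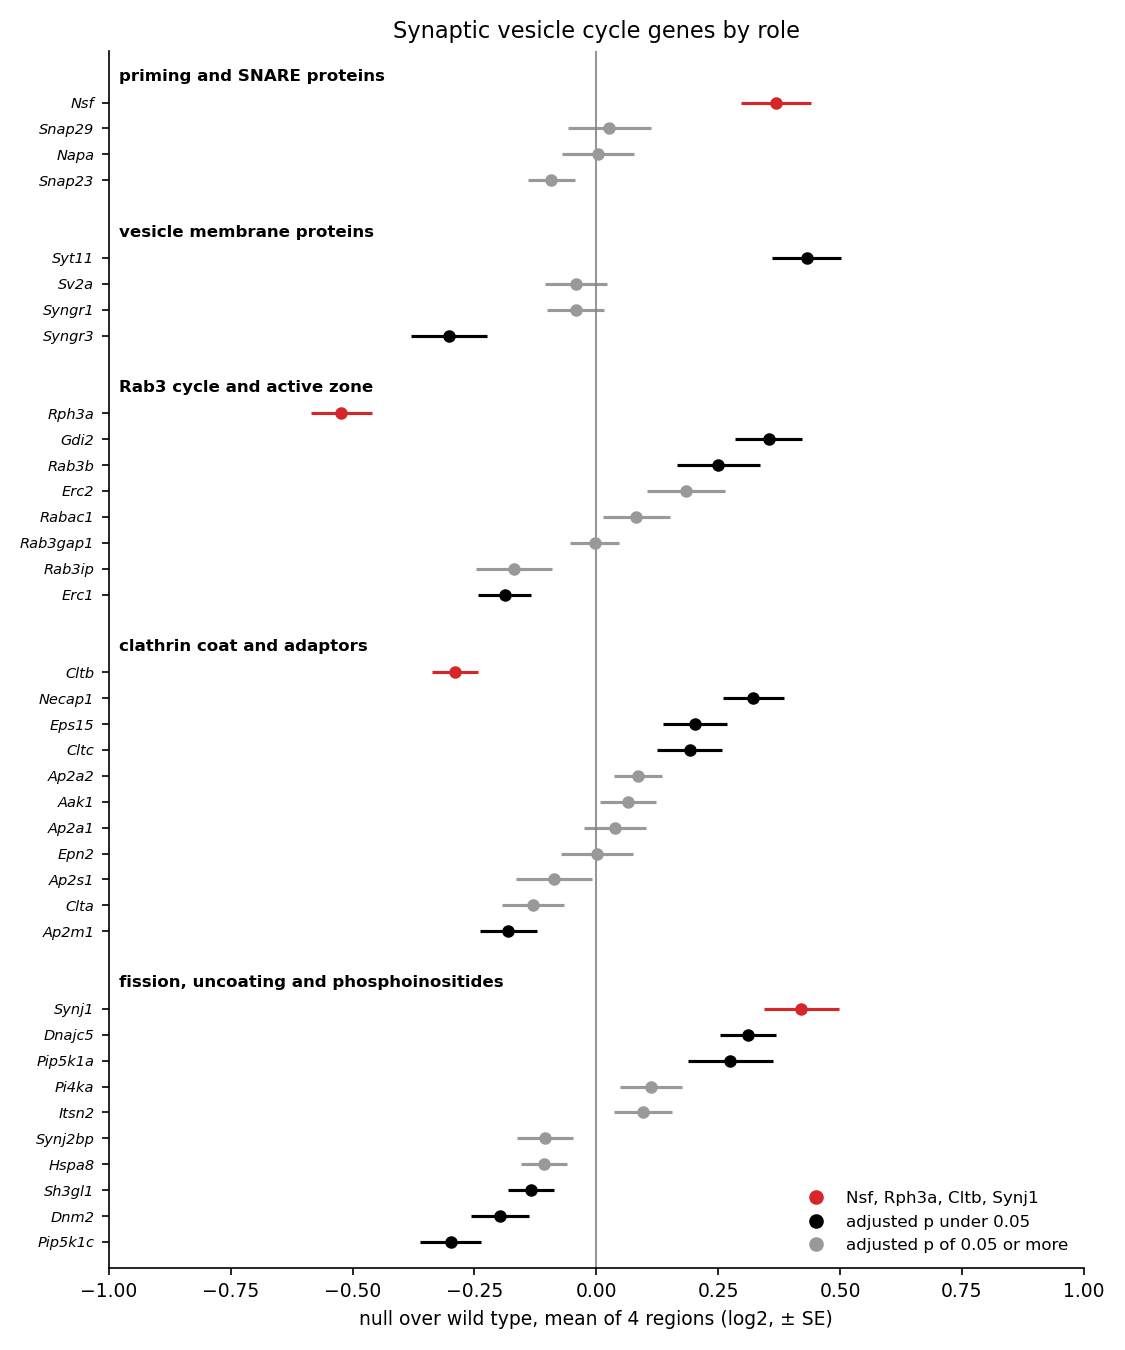
Mean null over wild type of the 4 regions (log2, horizontal axis, with SE) for Nsf, Synj1, Cltb and Rph3a and 33 other vesicle cycle genes, by role group, with genes of adjusted p under 0.05 in black and the others in grey. Rph3a at -0.52 was the lowest, and Syt11 at 0.43, Synj1 at 0.42 and Nsf at 0.37 were the highest. Nsf, Synj1, Cltb and Rph3a were chosen by their ratios, so their place among the others is not a result.

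Whether ratios differed between regions was tested by an F test over the 4 regions. With limma it called 0% of features after adjustment, or 0 of 8319, and 4.22% had an unadjusted p under 0.05. For Nsf, Synj1, Cltb and Rph3a the replicate ranges of all neighbouring regions overlapped, as given above.

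Markers of cell types were read beside these results. Of the neuronal markers 4 of 14 were measured, with a median of -0.060 in the mean of the regions, 1 above 0 and 3 below. Tubb3, a neuronal tubulin, fell by 0.66 ± 0.11, while Nefl, Uchl1 and Gap43 had -0.046, -0.075 and 0.065. Of 5 astrocyte markers 3 lay above 0, with a median of 0.0021. Slc1a3 and Sparcl1 rose, by 0.14 and 0.24, and were called in the mean, as were 26.1% of all features. Gja1 had 0.0021, Glul -0.064 and Aldoc -0.056. In the mean of the regions 0 of the 3 microglial markers passed with limma, and 0 at an unadjusted p under 0.05. Their median there was 0.12. The regions differed in sign, since all 3 lay below 0 in cortex (-0.33 to -0.18) and above 0 in cerebellum (0.38 to 0.58). Hippocampus and brain stem-diencephalon each had markers on both sides of 0. In each single region 0 of the 3 were called. The F test over regions gave unadjusted p of 0.00018 for C1qb, 0.014 for C1qa and 0.017 for C1qc, and none passed after adjustment. The single myelin marker Mbp had -0.039 in the mean. Of 2 vessel and blood markers Pecam1 fell by 0.44 and Hbb-b1 rose by 0.56. The choroid plexus marker Ttr fell by 0.31 in the mean, although its hippocampus ratio was 0.68. It had -1.05 in cerebellum, -0.70 in cortex and -0.19 in brain stem-diencephalon. The F test over regions gave Ttr an unadjusted p of 0.00015 and an adjusted p of 0.209. The part of all these markers in the ratios of Nsf, Synj1, Cltb and Rph3a was not tested.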

How the data were processed

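Amplified RNA of 4 brain regions was measured on 20 arrays with 2 channels. The deposited values are log ratios of both channels, centred by the authors near 0, and were read as log2. No source used here names the image analysis, the normalization or the base of the log. Probes were named through the platform annotation and RefSeq (GRCm38.p6, names and promoter windows only).

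Swapped arrays were multiplied by -1, and array medians were set to 0. A probe needed 3 values or more in every region, 1 of them in each orientation. Averaging the probes of a gene left 8319 features. Averaging same-numbered arrays within a region left 13 replicates (4 in cortex, 3 in each other region). A linear model with a term per region and an orientation term was fitted and moderated with limma 3.58.1 in R 4.3.3, with Benjamini-Hochberg adjustment over all features (threshold 0.05). A p-value reflects only the spread among these samples, possibly technical, and leaves out that of the wild-type pool. Replicates of one number were not treated as pairs. The bar was that all same-number pairs across regions correlate above 0.1, and 14 of 18 did (r from -0.189 to 0.732). Their median r was 0.25, against -0.12 for other pairs, so p-values of the mean may treat related samples as separate.

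The 4 genes and all gene lists were chosen with earlier results of these data known. Named besides the 4 genes are list genes past the threshold, up to 3 further genes per role group with the smallest p of the mean, marker genes, and the 3 genes most like each of the 4. The alternatives cover centring, scaling, probe averaging, missing-value filters, the orientation term, the blocks, variance moderation, the dye swaps, the repeated array and each replicate. The fits without the replicates of number 1 and with the dye-swapped arrays alone were chosen after seeing the data. The mutated gene is not reported here.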

Additional observations from a re-analysis of the deposited data

Results flagged for a closer look

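Among 29 groups of 4 or 5 values of the named genes, the lowest or highest sample was compared with the rest of its group by Dixon's ratio, which by chance picks about 1 group in 20. In cerebellum the swapped array 1 had Synj1 at 0.95, far above the other 4 arrays (0.20 to 0.36), and this is the repeated array. In cortex the unnumbered swapped array had Cltc at 0.45, far from the other 3 replicates.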

How the results depend on the processing

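Of 510 ratios of the 4 genes compared between settings, 500 moved by less than the spread between replicates, 10 moved by more, and 2 changed sign, neither of them called (Synj1 in brain stem-diencephalon at -0.0029 without its replicate 2, and Cltb there at 0.11 without the dye swaps). That spread is the SD of single replicates, a wide bar, so the 500 do not show that a ratio held. Cltb in the mean went from -0.29 to -0.032 without the dye swaps, which is within its SD of 0.292. Cltb and Rph3a have no fit where a value on all 20 arrays is asked. The counts of called features and of the 33 vesicle genes moved more, and the cause was not tested. In cortex 343 features were called, 37 with arrays scaled to one spread, 219 with values on all 20 arrays, 222 without an orientation term, 746 with single arrays in a random block, 2 with a variance trend and robust moderation, 129 without the dye swaps, 689 with the replicate block, 2177 without number 1, 1 with dye swaps alone, and 6 to 1689 with 1 replicate left out. Hippocampus had 55, then 183 (single arrays), 14 (trend), 303 (no dye swaps), 85 (replicate block), 427 (no number 1), 8 (swaps alone) and 13 to 67 (1 left out). Cerebellum had 255, then 142 (scaled), 708 (single arrays), 28 (trend), 48 (no repeated array), 494 (replicate block), 557 (no number 1), 17 (swaps alone) and 20 to 456 (1 left out). Brain stem-diencephalon had 30, then 12 (all 20 arrays), 91 (single arrays), 16 (trend), 313 (no dye swaps), 225 (no number 1), 9 (swaps alone) and 17 to 38 (1 left out). The mean had 2172, then 785 (all 20 arrays), 1407 (no repeated array), 1445 (replicate block) and 944 to 2575 (1 left out). Of the vesicle genes 0 were called in cortex, then 1 (single probes), 1 (all 20 arrays), 3 (single arrays), 4 (replicate block), 10 (no number 1) and 0 to 8 (1 left out). In hippocampus 0 became 2 (no dye swaps) and 4 (no number 1), and in brain stem-diencephalon 2 (no dye swaps) and 1 (no number 1). In cerebellum 0 became 2 (all 20 arrays), 1 (no orientation term), 4 (single arrays), 2 (no dye swaps), 2 (replicate block), 5 (no number 1) and 0 to 2 (1 left out). In the mean 14 became 8 (scaled), 6 (all 20 arrays), 8 (no orientation term), 7 (replicate block) and 6 to 14 (1 left out). The F test had 0, then 3 (scaled), 4 (single arrays), 5 (no dye swaps), 1 (no repeated array), 10 (replicate block), 16 (no number 1) and 0 to 5 (1 left out). The orientation term had 77, then 189 (not centred), 33 (scaled), 3613 (single arrays), 43 (no number 1) and 9 to 151 (1 left out). The term of Nsf was -0.030 with the replicate block and -0.071 to 0.086 with 1 replicate left out. That of Synj1 was 0.0066 with scaled arrays, 0.041 without the repeated array and -0.10 to 0.035 with 1 replicate left out. The labels do not say what a number stands for. Replicates of one number in different regions correlated with a median r of 0.25 (18 pairs), against -0.12 for other pairs (45), and 6 of 13 correlated best with one of their own number, a hint from the data, not the design. With the replicate block, Syt11, Syngr3, Gdi2, Erc1, Necap1, Dnajc5 and Pip5k1c remained called in the mean, while the calls of Rab3b, Cltc, Ap2m1, Eps15, Dnm2, Sh3gl1 and Pip5k1a ended (adjusted p from 0.0573 to 0.165), and Cltb gained a call in cerebellum (-0.36).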
